A study of Mus musculus with 6 samples.

Results

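Clade B serpins are the intracellular branch of the serpin family, and 9 genes of this branch were followed here between mouse esophageal and stomach organoids. The 9 genes are *Serpinb1a*, *Serpinb2*, *Serpinb3a*, *Serpinb5*, *Serpinb6a*, *Serpinb8*, *Serpinb9*, *Serpinb11* and *Serpinb12*. They were chosen by name, as every non-control probe annotated to 1 of them, which gave 10 probes of the 55681 on the array (34298 gene names). *Serpinb12* has 2 probes and each other gene has 1. Organoids were grown from the dissociated esophagus, lined by stratified squamous epithelium, and from glands of the stomach corpus, lined by columnar epithelium. Each tissue gave 3 arrays, and the labels name mice 1, 2 and 4 for both tissues. All organoids were control cultures at passage 0, taken on day 8 except for the stomach organoids of mouse 4, taken on day 7.

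The labels give no strain, sex, age or allele for these 3 animals, and the methods of the study name wild-type C57BL/6 females beside reporter strains. Both media held EGF, noggin, FGF-10, a TGF-β receptor kinase inhibitor, a ROCK inhibitor, nicotinamide, N-acetyl-cysteine, B27 and N2. The stomach medium also held WNT3A and R-spondin1 conditioned media and gastrin, and the esophagus medium held forskolin, so tissue and medium cannot be told apart. Esophageal organoids of mouse 4 were on a slide of their own and the other 5 samples shared a slide. Total RNA of whole cultures was hybridized, so a larger share of cells with a transcript and more of it per cell cannot be told apart. Values are log2 intensities, and levels are compared between arrays for 1 probe at a time, apart from summed marker levels. Levels of different probes are not compared with each other.

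Serpins inhibit proteases by a suicide mechanism, in which the protease cleaves an exposed loop and is then trapped in a covalent complex with the folded-up inhibitor. Clade B members lack a classical secretion signal and work mostly in the cytosol and nucleus, where they are thought to guard cells against proteases that leak from lysosomes or granules. In squamous epithelia they are known as abundant proteins of the upper layers, and *Serpinb3a* belongs to the family of the human squamous cell carcinoma antigens. In the mouse the genes lie in 2 groups, on chromosomes 1 and 13.

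Most of the 9 genes were higher in the esophageal organoids. By limma with Benjamini-Hochberg adjustment over all probes, at an adjusted p under 0.05 and at least 1.5-fold, 6 genes (*Serpinb5*, *Serpinb3a*, *Serpinb11*, *Serpinb2*, *Serpinb8* and *Serpinb1a*) were called higher in esophagus. Only *Serpinb9* was called higher in stomach, and *Serpinb12* and *Serpinb6a* were not called. Over all gene names, 7.73% had a probe called higher in esophagus, 8.23% a probe called higher in stomach and 15.9% either. Of the 10 probes, 7 were called, against 12.0% of all probes. The 6 probes higher in esophagus stand against 5.84% of all probes and the 1 probe higher in stomach against 6.15%. All 10 probes had groups that did not overlap, against 28.6% of all probes, and the median log2 difference (esophagus minus stomach) was 2.39 for them and 0.02 over all probes. A single probe of 3 against 3 arrays can reach no exact permutation p below 0.1, so p-values are given from the fit across all probes.

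**Figure D1:**
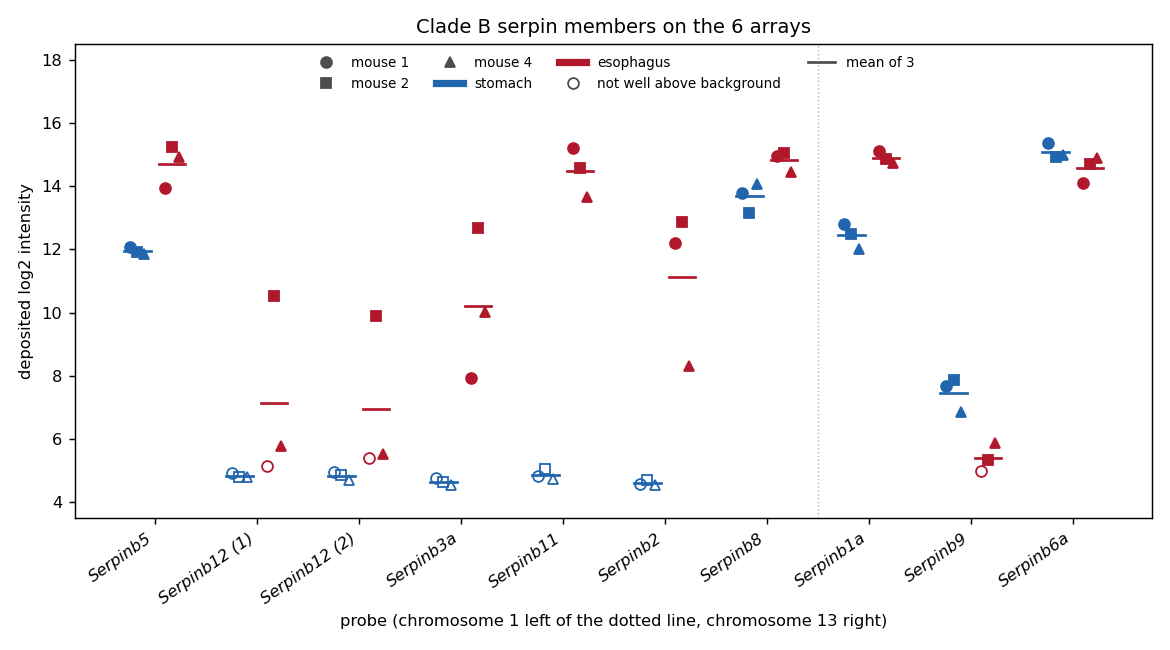
Deposited log2 intensity (vertical axis) of the 10 probes of the 9 clade B serpins (horizontal axis), with 1 symbol per array, shaped by mouse and coloured by tissue, a line at the mean of 3 arrays and open symbols where a probe was not well above background. *Serpinb11*, *Serpinb2*, *Serpinb3a* and *Serpinb12* sat at background on all 3 stomach arrays, the first 3 of them lay between 7.94 and 15.20 on the esophagus arrays, and *Serpinb9* was lower and *Serpinb6a* slightly lower in esophagus.

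The summed marker levels matched the labelled tissues. The summed level of 5 squamous basal keratinocyte genes (*Krt5*, *Krt14*, *Trp63*, *Itgb4*, *Col17a1*) was 18.0 to 18.3 on the log2 scale in esophagus and 13.3 to 13.4 in stomach, and that of 7 gastric genes was 10.5 to 11.7 in esophagus and 19.2 to 19.3 in stomach. Of the 4 *Trp63* probes, 3 were higher in esophagus and 1 was higher in stomach (log2 difference -1.22, limma adjusted p = 0.0249). Immune cells, which use several clade B serpins, were looked for with 7 genes, whose sum was 14.2 to 15.4 in esophagus and 14.8 to 15.5 in stomach. Of these, *Ptprc* (the leukocyte marker CD45) and *Adgre1* stayed at background on all 6 arrays, and the other 5 were above it in both tissues. Between 45.5% and 51.1% of the spots were well above background and no spot was saturated.

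The chromosome 1 group held 12 clade B genes on the array, measured by 13 probes over 726.34 kb (mm9, 108778585 to 109504924), and 6 of the 9 genes followed here. Of the 12 genes, 7 were called higher in esophagus, none was called higher in stomach (none also at an unadjusted p under 0.05) and 5 were not called. The shares over all gene names were 7.73% higher in esophagus and 8.23% higher in stomach. The median log2 difference of the 13 probes was 2.32.

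*Serpinb5*, at the start of the group (probe at chr1:108778585-108778644, plus strand), encodes maspin, a serpin that does not inhibit proteases and is a known epithelial tumour suppressor. Its log2 intensity was 12.06, 11.91 and 11.87 in the stomach organoids of mice 1, 2 and 4 and 13.95, 15.23 and 14.91 in their esophageal organoids. Both tissues were well above background on all arrays, every esophagus array was higher than every stomach array, and mouse 1 was the lowest of the 3 in esophagus. The difference was 2.75 (standard error 0.310, 95% confidence interval 2.03 to 3.47), or 6.72-fold, with a limma adjusted p of 8.66e-04.

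*Serpinb11* (chr1:109276756-109276815, plus strand), a member for which no target protease in the cell is well established, was at background in stomach and bright in esophagus. It lay at 4.83, 5.05 and 4.72 in stomach, where no array was well above background, and at 15.20, 14.57 and 13.67 in esophagus. The esophagus values were all far above the stomach values, with mouse 4 the lowest. Because the stomach level is only bounded by background, esophagus was at least 782-fold higher (log2 difference 9.61, limma adjusted p = 1.78e-06). This and the other bounds compare the mean of the higher tissue with a floor for the other tissue. On each array of the other tissue, the floor is the higher of the lowest signal well above background and the probe's own value.

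*Serpinb2* (chr1:109422046-109422105, plus strand) encodes plasminogen activator inhibitor type 2, an inhibitor of urokinase. The stomach arrays read 4.59, 4.71 and 4.53, none of them well above background, and the esophagus arrays 12.22, 12.86 and 8.30. Mice 1 and 2 were alike in esophagus and mouse 4 was much lower, although still above every stomach array. Esophagus was at least 82.6-fold higher (log2 difference 6.51, confidence interval 4.10 to 8.92, limma adjusted p = 0.00518). Without the mouse 4 esophagus array, which is also the comparison within 1 slide, the log2 difference was 7.92, and without those of mouse 1 or mouse 2 it was 5.97 or 5.65.

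*Serpinb3a* (chr1:108942312-108942371, minus strand), a counterpart of the human squamous cell carcinoma antigens that inhibit serine and cysteine proteases, was at 4.75, 4.63 and 4.56 in stomach and 7.94, 12.68 and 10.03 in esophagus. The esophagus arrays thus spread over a log2 range of 4.74, with mouse 2 the highest and mouse 1 the lowest, and the stomach arrays were all at background. Esophagus was at least 42.4-fold higher, with a log2 difference of 5.57 (confidence interval 3.25 to 7.89, limma adjusted p = 0.00924). Without the esophagus array of mouse 2 the log2 difference was 4.34, and without that of mouse 1 it was 6.71. The call was lost under 2 of the alternative settings, with an adjusted p of 0.0612 after a larger background offset and 0.0572 with a trend and robust variances.

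*Serpinb12* encodes an inhibitor of trypsin-like proteases that is widely made in epithelia. Its first probe (chr1:108846143-108846202, plus strand) read 4.91, 4.79 and 4.80 in stomach and 5.15, 10.52 and 5.78 in esophagus, and its second probe (chr1:108846179-108846238) read 4.95, 4.85 and 4.70 in stomach and 5.40, 9.90 and 5.53 in esophagus. No stomach array was well above background with either probe. With both probes a single array, the esophagus of mouse 2, stood far above the other 5, and the esophagus of mouse 1 was not well above background. The log2 differences were 2.32 (confidence interval -0.54 to 5.18) and 2.11 (-0.40 to 4.61), with limma adjusted p-values of 0.316 and 0.296. Without mouse 2's esophagus array the log2 differences were 0.64 and 0.63. No lower bound on the fold is given, because the esophagus mean includes a reading at background. The probes overlap in 24 bases and are not independent measurements.

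*Serpinb8* (chr1:109504865-109504924, plus strand), at the other end of the group, encodes an inhibitor of the proprotein convertase furin. It was well above background everywhere, at 13.80, 13.17 and 14.08 in stomach and 14.95, 15.05 and 14.46 in esophagus. The tissues came close together, since the lowest esophagus array and the highest stomach array were both from mouse 4. The difference was 1.14 (confidence interval 0.51 to 1.76), or 2.20-fold, with a limma adjusted p of 0.0314. This call did not hold in 8 of 15 alternative settings, and with the mouse as a block the adjusted p was 0.0707.

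The 6 other clade B genes of chromosome 1 were split. *Serpinb10*, known from blood-forming cells as bomapin, was at 4.63, 4.79 and 4.49 in stomach and 10.97, 10.94 and 8.22 in esophagus, at least 38.7-fold higher (limma adjusted p = 0.00149, with a log2 difference of 5.41, and of 6.32 without the esophagus array of mouse 4). *Serpinb3c*, a close copy of *Serpinb3a*, read 5.31, 5.42 and 5.15 in stomach and 8.07, 12.55 and 9.98 in esophagus (log2 difference 4.91, limma adjusted p = 0.0130), a call that was lost under 5 alternative settings. Only 1 of its 3 stomach values was well above background, and the difference was 3.73 without the esophagus array of mouse 2 and 5.97 without that of mouse 1. In esophagus *Serpinb10* shared its lowest mouse, mouse 4, with *Serpinb2*, and *Serpinb3c* had the mouse order of *Serpinb3a*, with mouse 2 highest and mouse 1 lowest. *Serpinb3b*, *Serpinb3d*, *Serpinb7* and *Serpinb13* were not well above background on any array, and their log2 differences lay between -0.04 and 0.17.

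Close copies limit what the *Serpinb3a* and *Serpinb6a* probes can separate. Its 60-base probe and that of *Serpinb3c* match in 43 bases at their best alignment without gaps, and the longest run they share, shown as the stretch where the probes are the same, is 17 bases.
Shared by the Serpinb3a and Serpinb3c probes: ttcttctaatctagcat
The *Serpinb6a* probe, on chromosome 13, shares a run of 26 bases with both *Serpinb6c* probes and matches 1 of them in 55 of 60 bases.
Shared by the Serpinb6a and Serpinb6c probes: aagtgaccttatccataagtgcaatg
Signal from 1 copy on the probe of the other cannot be told apart in these pairs. The *Serpinb6e* probe shares 18 bases with that of *Serpinb6a*. Beside these pairs and the 2 *Serpinb12* probes, no probe of the 9 genes shared a run of 15 bases or more with a clade B probe.

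**Figure D2:**
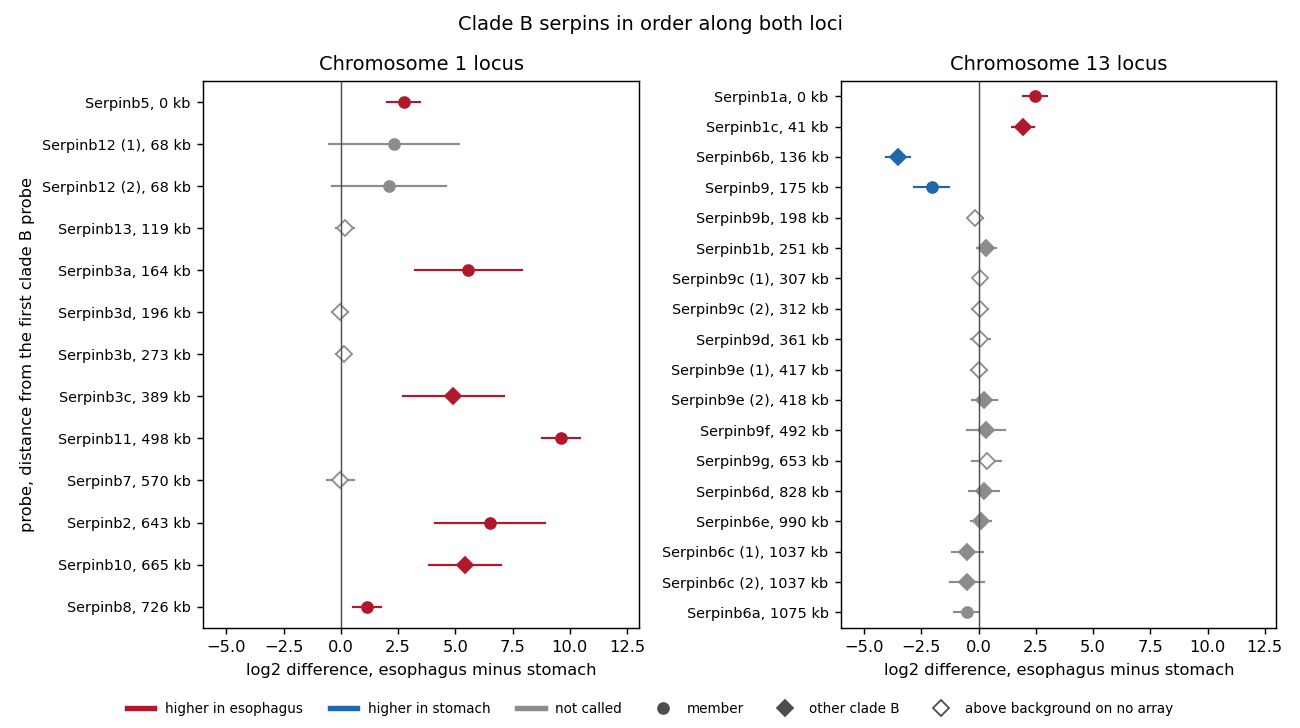
Log2 difference, esophagus minus stomach (horizontal axis), with its 95% confidence interval for each clade B probe, listed in order along chromosome 1 (left) and chromosome 13 (right) with the distance in kb from the first clade B probe. On chromosome 1 all 7 called genes lie to the right of 0, and on chromosome 13 *Serpinb1a* and *Serpinb1c* lie to the right, *Serpinb6b* and *Serpinb9* to the left and the rest near 0.

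The chromosome 13 group (mm9, 32934693 to 34009855, 1075.16 kb) held 15 clade B genes, 18 probes and 3 of the 9 genes. Of the 15 genes, 2 were called higher in esophagus, 2 higher in stomach and 11 were not called, with a median log2 difference of 0.06. Over all gene names 7.73% were called higher in esophagus and 8.23% higher in stomach. *Serpinb1a* (chr13:32934693-32934752, minus strand), an inhibitor of neutrophil elastase, cathepsin G and proteinase 3, was at 12.82, 12.49 and 12.03 in stomach and 15.10, 14.86 and 14.73 in esophagus. Both tissues were bright, the groups lay well apart and the 3 esophagus arrays agreed within an SD of 0.18. The difference was 2.45 (confidence interval 1.93 to 2.97), or 5.48-fold, with a limma adjusted p of 2.73e-04. Its neighbour *Serpinb1c* was also higher in esophagus (6.19, 6.01 and 5.51 in stomach against 7.96, 7.77 and 7.79), by 1.94 on the log2 scale.

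*Serpinb9* (chr13:33109767-33109824, plus strand), the inhibitor of granzyme B that protects cytotoxic lymphocytes from their own granules, ran the other way. It was at 7.69, 7.85 and 6.84 in stomach and 4.997, 5.33 and 5.89 in esophagus. Stomach was higher on every array, and in esophagus 2 of 3 arrays were well above background. The difference was -2.06 (confidence interval -2.80 to -1.31, limma adjusted p = 0.00472). *Serpinb6b*, which lies beside *Serpinb9* in the group, was lower in esophagus by a wider margin, at 9.77, 9.59 and 9.06 in stomach against 6.24, 5.78 and 5.84 (log2 difference -3.52, limma adjusted p = 3.82e-05). Of the 5 immune markers above background, *Itgam* was lower in esophagus with 1 of its 3 probes (log2 difference -2.62, limma adjusted p = 6.62e-04), and its other 2 probes were at background. The other 4 did not pass the test. Their log2 differences were 1.63 and 1.41 for the 2 *Cd68* probes, -0.92 for *Csf3r*, -0.50 for *Cd3e* and between -0.60 and 0.19 for the 3 *Csf1r* probes. The *Csf1r* probe with 0.19 was at background on every array, and the probe with -0.60 was so on 1 stomach array. The part of immune cells in the *Serpinb9* and *Serpinb6b* differences was not tested.

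*Serpinb6a* (chr13:34009796-34009855, minus strand), a broadly made inhibitor of cathepsin G and trypsin-like proteases, was bright in both tissues and not called. Its values were 15.37, 14.91 and 14.99 in stomach and 14.09, 14.71 and 14.90 in esophagus. The groups did not overlap, but the lowest stomach array and the highest esophagus array nearly met. The log2 difference of -0.53 (confidence interval -1.09 to 0.04) did not pass the test (limma adjusted p = 0.240). Both *Serpinb6c* probes gave differences of the same size, -0.49 and -0.53, and did not pass either. Of the remaining chromosome 13 genes, *Serpinb6d* and *Serpinb6e* were above background in both tissues with differences of 0.24 and 0.10, and *Serpinb1b*, *Serpinb9b*, *Serpinb9c*, *Serpinb9d*, *Serpinb9e*, *Serpinb9f* and *Serpinb9g* were above background on at most 1 array, with differences between -0.14 and 0.36.

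The esophageal organoids of the 3 mice differed more in some of these genes than in most probes. Over the 22800 probes well above background on all 3 esophagus arrays, the median SD was 0.29 and the 90th percentile was 0.69. Of the 7 probes of the 9 genes in that set, *Serpinb2* (SD 2.47), *Serpinb3a* (2.37) and *Serpinb11* (0.77) lay above the 90th percentile. In stomach 5 of the probes were in the corresponding set and none lay above its 90th percentile of 0.56. *Serpinb2*, *Serpinb3a* and *Serpinb11* were at background in stomach and so not in that set, and their spread cannot be compared between the tissues.

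The mice that stood apart differed between genes. *Serpinb2* and *Serpinb10* were low in mouse 4, with log2 deviations of -2.82 and -1.82 from their esophagus means. Among late squamous differentiation genes the same array was low for *Sprr3* (15.62, 15.19 and 11.62 in mice 1, 2 and 4). It was also low for both *Crct1* probes (17.33, 17.07 and 14.22 with 1 probe and 9.90, 8.44 and 5.72 with the other). The same held for *Lor*, the cornified envelope protein loricrin (14.44, 16.94 and 10.38). *Serpinb3a*, *Serpinb3c* and both *Serpinb12* probes were highest in mouse 2, by 2.46, 2.35, 3.37 and 2.96 over their means, and so was *Lor*, by 3.02. *Serpinb3a* and *Serpinb3c* were also low in mouse 1 (deviations -2.27 and -2.13), with mouse 4 near the mean (-0.19 and -0.22). Of the 3 *Flg* (filaggrin) probes, none was well above background on all 3 esophagus arrays. *Lor* was thus low in mouse 4 and highest in mouse 2, but in mouse 1 it lay 0.52 above its mean, unlike *Serpinb3a*. *Serpinb2* was also highest in mouse 2, so the patterns are not exclusive. *Krtdap* varied little (16.97, 17.02 and 16.59), and *Ivl* was lowest in mouse 2. With 3 arrays these orders are a description, and the part of differentiation state, of the slide of mouse 4 or of any other difference between the cultures was not tested.

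**Figure D3:**
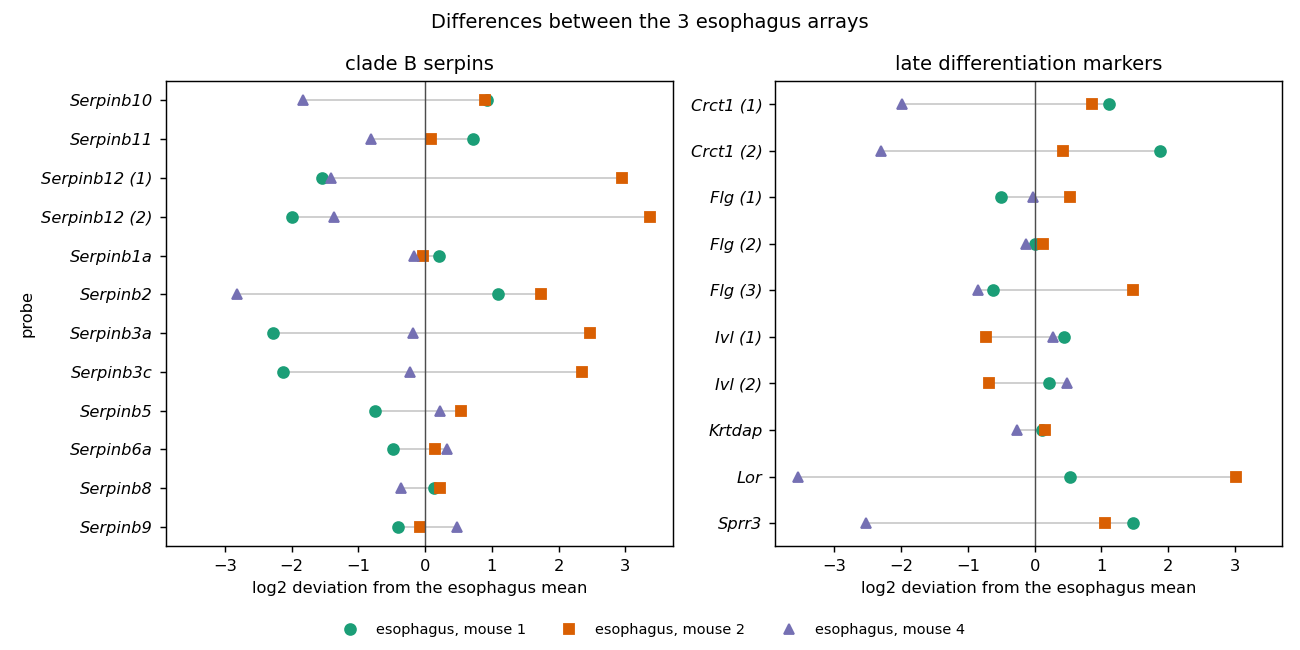
Deviation of each esophagus array from the esophagus mean (horizontal axis, log2 scale) for clade B serpin probes (left) and late differentiation marker probes (right), with symbols for mice 1, 2 and 4. *Serpinb2*, *Serpinb10*, *Sprr3*, *Crct1* and *Lor* have mouse 4 far to the left. *Serpinb3a*, *Serpinb3c* and *Serpinb12* have mouse 2 far to the right and mouse 1 to the left, and *Serpinb1a* stays within 0.20 of its mean.

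Promoter sequence was compared within the family, because the 7 called genes of the chromosome 1 group were all higher in esophagus and the 4 called on chromosome 13 were split 2 and 2. RefSeq windows of the assembly GRCm38.p6, from 250 bases before to 50 after an annotated start (300 bases), were matched for 8 of the 9 genes, with 11 windows in all. *Serpinb1a* had no window. The letters TGANTCA, bound by AP-1 factors and equal to their own reverse complement apart from the middle base, were found in 6 of the 11 windows. These belong to *Serpinb5*, *Serpinb12*, *Serpinb11*, *Serpinb2* and *Serpinb8*. Of the *Serpinb12* windows only 1 holds the letters, which occur in 7.81% of all 32851 windows. The windows of *Serpinb2* overlap and hold the same match, at -94 from 1 start and -181 from the other, so it is counted in both. Counting every clade B gene with a window, 7 of 11 on chromosome 1 and none of 15 on chromosome 13 held the letters. *Serpinb7*, whose probe was at background in both tissues, is among the 7 with *Serpinb10*, and *Serpinb3a* and *Serpinb3c* are not. The match is a description of these windows and shows no binding.

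The stretches below are the matches that lie before the start in the called chromosome 1 genes and in *Serpinb12*, each on the plus strand, with TGANTCA in capitals. They are shown so that the letters around the match can be compared, and the first base of the match lies at -140 (*Serpinb5*), -45 (*Serpinb12*), -181 and -76 (*Serpinb11*), -94 (*Serpinb2*), -54 (*Serpinb10*) and -23 (*Serpinb8*), counted in bases from the start.
Serpinb5, chr1:106861015-106861061: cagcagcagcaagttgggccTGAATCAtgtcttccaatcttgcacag
Serpinb12, chr1:106934384-106934430: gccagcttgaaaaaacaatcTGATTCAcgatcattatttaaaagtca
Serpinb11, chr1:107362113-107362159: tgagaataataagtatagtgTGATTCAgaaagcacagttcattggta
Serpinb11, chr1:107362218-107362264: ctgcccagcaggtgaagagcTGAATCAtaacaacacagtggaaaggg
Serpinb2, chr1:107511309-107511355: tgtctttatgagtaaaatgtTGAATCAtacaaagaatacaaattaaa
Serpinb10, chr1:107528929-107528975: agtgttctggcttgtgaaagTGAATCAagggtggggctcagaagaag
Serpinb8, chr1:107589963-107590005: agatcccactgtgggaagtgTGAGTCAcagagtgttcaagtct
Outside the capitals the stretches differ from gene to gene. *Serpinb8* also holds TGAGTCA after its start.

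*Serpinb3a* and *Serpinb3c*, whose values ran in parallel over the 3 mice, have promoter windows that match in 249 of 300 bases at the best alignment without gaps. A stretch around the TATAAA letters (capitals) of each, on the minus strand, shows how close the copies are.
Serpinb3a, chr1:107052338-107052388: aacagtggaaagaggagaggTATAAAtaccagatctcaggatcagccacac
Serpinb3c, chr1:107278372-107278422: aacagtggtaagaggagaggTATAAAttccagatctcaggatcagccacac
The window of *Serpinb3b*, whose probe was at background on all 6 arrays, matches that of *Serpinb3a* in 257 of 300 bases. Of the other motifs searched on both strands, TATAAA was in 5 of the 11 windows (13.6% of all windows) and CCNCNCCC, bound by Kruppel-like factors, in 7 (49.5%). The overlapping windows of *Serpinb2* hold the same match of each, which is counted in both. The p53 family decamer was in none (8.36%), which says only that these letters are not in these windows. No match of 1 motif overlapped a match of another in the windows of the 9 genes.

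The proteases that clade B serpins are known to inhibit were taken as a list of 14 genes (15 probes). Of these 3 were called higher in esophagus, none higher in stomach (none also at an unadjusted p under 0.05 with 1.5-fold), 11 were not called, and the median log2 difference was 0.17. The 3 called probes of 15 stand against 12.0% of all probes. *Klk8*, a secreted kallikrein of stratified epithelia, read 5.38, 5.47 and 5.21 in stomach and 14.67, 14.16 and 11.31 in esophagus (log2 difference 8.03, limma adjusted p = 3.54e-04), with mouse 4 the lowest as for *Serpinb2* and only 1 stomach array well above background. Without the esophagus array of mouse 4 its difference was 9.06, and without that of mouse 1 it was 7.38. *Casp1*, the inflammatory caspase, was not well above background in stomach (5.25, 5.25 and 4.94) and at 12.77, 12.70 and 13.34 in esophagus, at least 221-fold higher.

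*Plau*, which encodes urokinase, the target of *Serpinb2*, was at 5.36, 5.19 and 5.96 in stomach and 6.85, 8.59 and 7.30 in esophagus (log2 difference 2.08, limma adjusted p = 0.0183). All 3 esophagus arrays were higher than the stomach arrays. The call did not hold under 5 of 15 alternative settings. *Plat*, the tissue-type activator, was at 9.79, 9.91 and 11.39 in stomach and 12.33, 9.28 and 6.55 in esophagus, so its groups overlapped.

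The other proteases of the list did not pass the test, and some were at background. *Furin*, the target of *Serpinb8*, lay between 12.22 and 12.63 on all 6 arrays (log2 difference 0.17, confidence interval -0.20 to 0.53). *Ctsl*, a lysosomal cysteine protease of the kind that squamous cell carcinoma antigens inhibit, differed by 0.34 (-0.47 to 1.15). *Gzmb*, the target of *Serpinb9*, and *Ctsg*, *Prtn3* and *Cma1*, granule proteases of myeloid and mast cells, were not well above background on any array, nor was *Ctss*. *Elane*, neutrophil elastase, was above background on all 6 arrays and differed by -0.21 (-0.68 to 0.27).

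The rest of the family and the genes beside it give the surroundings. Of the 18 other clade B genes on the array (21 probes), 3 were called higher in esophagus, 1 higher in stomach, and 8 were well above background on no array. These counts, and those that follow, stand beside 15.9% of all gene names called in either direction. Of 35 serpin genes of other clades (48 probes), which are mostly secreted, 3 had a called probe, and 22 were well above background on no array. *Serpinh1*, the collagen chaperone of the endoplasmic reticulum, was at background in stomach and at least 8.14-fold higher in esophagus (log2 difference 3.03). Its esophagus arrays were spread, at 6.88, 8.17 and 9.34 in mice 1, 2 and 4, and its call was lost after a larger background offset. *Serpina9* was at background in esophagus and at least 2.52-fold higher in stomach (-1.39). For *Serpina11* the called probe gave 0.73, and its other probe, which overlaps it, gave -0.61 without passing the test (limma adjusted p = 0.102), so no direction is given for this gene.

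Among 32 genes of other names inside the 2 groups or within 500 kb of them (51 probes), 4 were called higher in esophagus and 2 higher in stomach, with a median log2 difference of -0.00242. The 7 called probes of 51 are a share near the 12.0% of all probes, so the called genes are named only as the surroundings. Beside the chromosome 1 group, *Phlpp1*, a phosphatase that acts on AKT, was higher in esophagus (1.25) and *Bcl2*, the inhibitor of apoptosis, was lower (-1.37). Both calls were lost in 8 of 15 alternative settings, and with the mouse as a block the limma adjusted p-values were 0.0776 and 0.0572. Beside the chromosome 13 group, the tubulin genes *Tubb2a* (3.69) and *Tubb2b* (2.95 and 4.58 with its 2 probes) and the proteasome assembly factor *Psmg4* (0.83) were higher in esophagus. *Bphl* was lower (-0.96) with 1 of its 2 probes, and the other probe gave -0.62 without passing the test (limma adjusted p = 0.0780). Of 15 alternative settings, *Tubb2a* and *Bphl* lost their calls in 4, and *Psmg4* and the *Tubb2b* probe with the difference of 2.95 in 3.

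**Figure D4:**
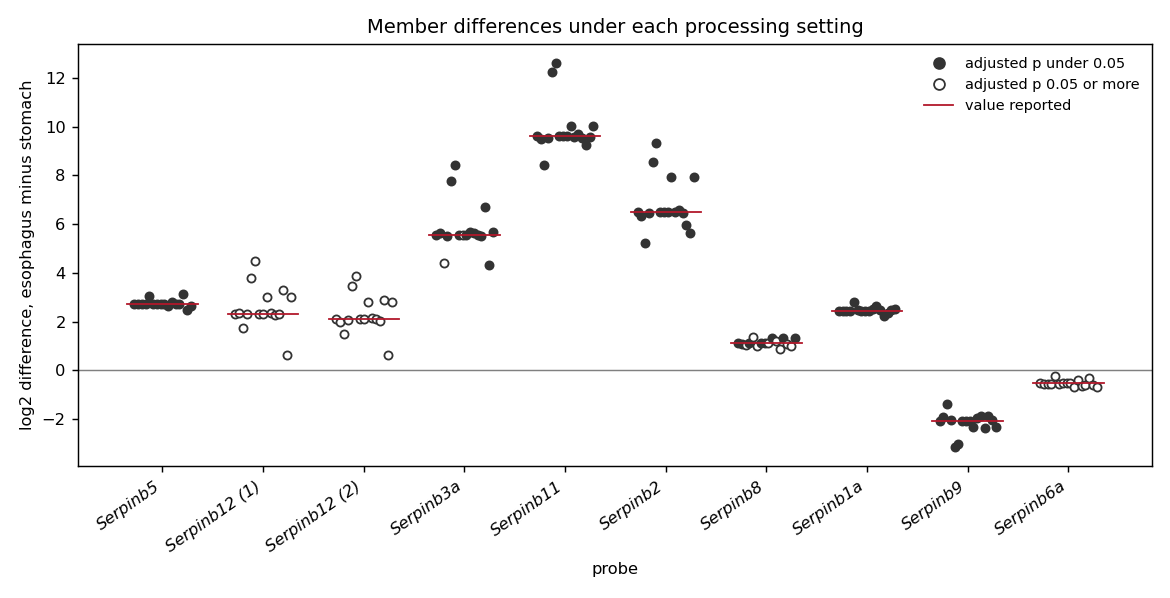
Log2 difference, esophagus minus stomach (vertical axis), of each of the 10 probes (horizontal axis) under the reported setting (line) and each alternative, filled where the adjusted p was under 0.05. *Serpinb11* ranged from 8.42 to 12.61 and *Serpinb2* from 5.21 to 9.32, no probe changed its direction, and only *Serpinb8* and *Serpinb3a* have symbols of both kinds.

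Across the alternative settings the member genes kept their directions. *Serpinb5* ranged from 2.48 to 3.12, *Serpinb1a* from 2.24 to 2.82, *Serpinb9* from -3.13 to -1.38 and *Serpinb6a* from -0.69 to -0.21. The number of the 9 genes called higher in esophagus was between 4 and 6, and the number called higher in stomach was 1 in each of 19 settings.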

How the data were processed

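RNA of mouse organoids was measured on 6 single-color Agilent arrays, 3 per tissue. Per the file headers, spots were read with Agilent Feature Extraction, version 11.5.1.1. The files deposited for each array hold raw and background-subtracted intensities that are not normalized between arrays. The deposited log2 values were background corrected and quantile normalized by the authors. Normexp (offset 15) on median intensities followed by quantile normalization gave them with a median absolute difference of 0.00433, and its 2029 missing values fell on the 2029 spots marked as outliers. The normexp offset is not given in the sources used here.

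Here the deposited log2 values were averaged over the spots of a probe. In R (4.3.3), limma (3.58.1) compared esophagus with stomach over 6 arrays with lmFit and eBayes, without a block, and adjusted p-values by Benjamini-Hochberg over 55681 probes. A gene was called when at least 1 probe had an adjusted p under 0.05 and a fold of 1.5 or more. A probe was well above background where the scanner software marked most of its spots so. The fit was tested on simulated data.

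The labels give both tissues the same mouse numbers, which were taken as the same animals. After centring each tissue, the 2 arrays of a mouse had correlations across probes of 0.025, 0.012 and -0.0079, against -0.0726 to 0.0405 for different mice. Alternatives were other background corrections and normalizations, a filter on dim probes, trend and robust variances, the mouse or slide as a term, averaging of probes, other thresholds and each array left out. All members and other clade B genes were named, neighbours where called, and of other clades the largest called differences. Target proteases were named where called, as were most of those not called. *Ctsk* and *Casp4*, which were not called, were not described. The members and lists were chosen with earlier results of these data known. Probe coordinates are of mm9, and promoters of GRCm38.p6. No proteins were used. Beside the 7 immune markers used, 1 more is not reported here.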

Additional observations from a re-analysis of the deposited data

How the results depend on the processing

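No direction of a member probe changed in 148 comparisons with an alternative setting, and 138 kept their side of the threshold. *Serpinb8* lost its call with a normexp offset of 50 (adjusted p = 0.0706), with background-subtracted intensities scaled to the 75th percentile (0.0636) or quantile normalized (0.104), with the mouse as a block (0.0707), and without the arrays of mouse 1 or mouse 2 of either tissue (0.0778 to 0.105). *Serpinb3a* lost its call with the offset of 50 (0.0612) and with trend and robust variances (0.0572). The mouse block left the calls of the other members as they were, for example *Serpinb2* at an adjusted p of 0.00597 and *Serpinb12* at 0.251 and 0.226. The slide term gave the same fit as leaving out the esophagus array of mouse 4. Under the filter on dim probes *Serpinb12* was not tested.

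The counts of target proteases stayed within 2 to 3 higher in esophagus and 0 higher in stomach, and those of other clade B serpins (1 setting), serpins of other clades and neighbouring genes moved by more than 1.5 times in the settings that follow. With intensities scaled to the 75th percentile, 1 other clade B gene, 1 serpin of other clades and 1 neighbouring gene were called higher in esophagus and 1 neighbouring gene higher in stomach. Quantile normalized background-subtracted intensities gave 1 serpin of other clades and 2 neighbours higher in esophagus and 1 neighbour higher in stomach. The offset of 50 gave 0 serpins of other clades higher in esophagus (*Serpinh1* and *Serpina11* by the values as deposited) and 1 neighbour higher in stomach, trend and robust variances gave 1 serpin of other clades higher in esophagus, and the replicate block gave 1 neighbour higher in stomach, with the calls of *Phlpp1* and *Bcl2* lost. Leaving out 1 array gave 1 to 2 serpins of other clades higher in esophagus and 1 to 2 higher in stomach, and 1 to 4 neighbours higher in esophagus and 0 to 3 higher in stomach. The lowest count of 0 neighbours higher in stomach came without the stomach array of mouse 1 or of mouse 2. Signal over background limits dim genes, so genes at background in 1 tissue have at most a lower bound, and 3 arrays per tissue limit the precision.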
